A study of Mus musculus with 12 samples.

Results

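Megakaryocyte and platelet genes were followed through RNA sequencing of mouse bone marrow that differed in the gene Hopx and in overexpression of MN1. The group was a named list of 34 genes, and all 34 were found by symbol among the 24444 genes of the count tables. Hopx is an atypical homeobox gene whose short product lacks DNA binding, and MN1 is a transcriptional coregulator that drives myeloid leukaemia when overexpressed in mouse marrow. The 12 libraries formed 4 groups of 3. MN1_KO was marrow of Hopx-knockout (Hopx-/-) C57BL/6 mice with MN1 overexpression, labelled 16 weeks old, and MN1_WT was its Hopx wild-type counterpart of the same strain, age and MN1 status. The group aged_KO was marrow of Hopx-/- C57BL/6 mice labelled both aged and 18 weeks old, with no MN1 overexpression, and aged_WT was marrow of Hopx wild-type mice of that strain and age. The labels name neither the Hopx allele nor the way MN1 was introduced, and they describe unsorted marrow cells. MN1 status, labelled age, deposited table and the level of Y-linked transcripts coincide, so they cannot be told apart. Nothing in the labels says whether replicates were separate mice, so p-values measure the spread between these libraries.

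Megakaryocytes are the large polyploid marrow cells that shed platelets. They are built under the cytokine thrombopoietin by transcription factors of the GATA, ETS and RUNX families. A maturing megakaryocyte first carries the integrin chain αIIb and the surface glycoproteins, then fills alpha granules with chemokines and adhesive proteins, and finally lays down the β1-tubulin coil of the platelet. Several of the 34 genes are not restricted to this lineage: Plek, Bin2, Nbeal2, Ptgs1, Tbxas1 and F5 are also transcribed in other blood cells.

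Library totals lay between 16544407 and 28409046 counts. Hopx stood at 2.92 to 3.51 CPM (counts scaled to the same library total) in MN1_KO and at 14.1 to 27.9 CPM in MN1_WT, and at 0 to 0.121 CPM in aged_KO and 14.2 to 33.6 CPM in aged_WT. Mn1 was at 22.1 to 47.3 CPM in MN1_KO and at 36.4 CPM in MN1_WT replicate 3. In MN1_WT replicates 2 and 4 it was at 0.395 and 0.16 CPM, inside the 0.0704 to 1.18 CPM of the aged libraries, so these 2 libraries went against their label; all libraries are named here as labelled. The labels do not say whether the introduced MN1 was of mouse sequence. The summed Y-linked transcripts were at 8.05 to 21.6 CPM in MN1_KO and 81.8 to 241 CPM in MN1_WT, against 0 to 0.152 CPM in the 6 aged libraries. The MN1 groups therefore differ in more than Hopx, and the MN1 and aged libraries in more than MN1. CPM values below are expected counts over the library total. Fold changes are log2 values with their standard error (SE) from edgeR after TMM scaling, n = 3 and 3, and a gene rose or fell where its Benjamini-Hochberg adjusted p was under 0.05. Without TMM the median log2 fold change of all genes moved to -0.20 in the aged comparison, where TMM scaling gave -0.02.

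The genes lie on 14 chromosomes. Pf4 and Ppbp, both CXC chemokines, are neighbours on chromosome 5, at 90772435 to 90773383 and 90768518 to 90770063 on the plus strand (GENCODE M21, GRCm38). Exons of another gene overlap Gp1bb (Sept5 and Gm49601), Clec1b (Clec9a) and Nbeal2 (Mir8107) on the same strand. A further 8 genes (P2ry12, Thbs1, F5, Selp, Mylk, Plek, Ptgs1 and Tbxas1) share exonic sequence with a gene on the opposite strand. Whether the authors counted by strand is not given in the sources used here, so the levels of these 11 genes are uncertain to the extent of such overlap.

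Megakaryocyte promoters are known for paired GATA and ETS sites, and the RefSeq windows of the GRCm38.p6 build (250 bases before to 50 after a transcription start) were searched for them on both strands. Of the 34 genes, 29 had an entry, with 30 windows in all. A GATA motif, AGATAA or TGATAA, stood in 10 of the 30 windows (33.3%), against 6115 of the 32851 windows of all genes (18.6%). The genes holding it were Gp1ba, Gp5, Gp6, Clec1b, Ly6g6f, P2rx1, F2rl2, Pf4, Mmrn1 and Gfi1b. An ETS motif, CCGGAAG or ACAGGAA, stood in 1 window (3.33%, Mylk), against 16.8% of all windows. These are matches of letters and not measured binding, and GATA or ETS sites of other sequence were not searched for. The 250 bases before the RefSeq start are shown for 4 genes that fell in aged_KO, with the GATA motif on either strand in capitals. Gp1ba (chr11:70638872-70639121, plus strand) and Gp5 (chr16:30310782-30311031, minus strand) were near their aged_WT level in MN1_KO. Ly6g6f (chr17:35085596-35085845, minus strand) and Mmrn1 (chr6:60944067-60944316, plus strand) were low in the MN1 libraries. The Mmrn1 window lies inside the gene as GENCODE M21 places it (60924976 to 60989378), since RefSeq's start there is further in. The first match lies 104 bases before the Gp1ba start and 93 bases before the Gp5 start, and the match nearest to the Mmrn1 start lies 34 bases before it.
Gp1ba: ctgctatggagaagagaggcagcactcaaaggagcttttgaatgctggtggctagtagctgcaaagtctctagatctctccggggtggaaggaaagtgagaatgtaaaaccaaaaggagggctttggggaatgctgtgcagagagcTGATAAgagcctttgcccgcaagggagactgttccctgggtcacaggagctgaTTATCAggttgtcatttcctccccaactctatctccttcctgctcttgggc
Gp5: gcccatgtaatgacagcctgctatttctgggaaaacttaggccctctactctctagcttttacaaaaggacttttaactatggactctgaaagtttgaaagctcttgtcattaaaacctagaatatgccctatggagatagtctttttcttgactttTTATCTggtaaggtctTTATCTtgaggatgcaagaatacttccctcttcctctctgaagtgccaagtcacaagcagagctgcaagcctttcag
Ly6g6f: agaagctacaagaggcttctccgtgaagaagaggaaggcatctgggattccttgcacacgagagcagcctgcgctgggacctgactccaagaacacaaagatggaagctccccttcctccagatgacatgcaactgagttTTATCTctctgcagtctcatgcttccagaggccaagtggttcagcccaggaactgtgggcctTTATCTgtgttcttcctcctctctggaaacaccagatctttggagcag
Mmrn1: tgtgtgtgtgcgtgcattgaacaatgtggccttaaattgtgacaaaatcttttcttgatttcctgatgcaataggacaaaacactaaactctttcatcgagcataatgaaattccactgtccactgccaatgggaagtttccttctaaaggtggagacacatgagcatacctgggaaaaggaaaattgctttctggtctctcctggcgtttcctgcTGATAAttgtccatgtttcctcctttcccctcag

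In the aged experiment, loss of Hopx went with lower levels of most of these genes. Of the 34, all tested, 24 fell and 4 rose in aged_KO, and 6 did not pass. Over all genes tested, 15.8% fell and 15.6% rose (31.4% in all). The median log2 fold change of the 34 was -1.42, against -0.02 for all genes. In plain CPM the aged groups did not overlap for 30 of the 34, with aged_KO lower in 26 and higher in 4, where 38.4% of all genes were lower without overlap and 12.4% higher (50.8% in all). After TMM scaling 25 were lower and 4 higher, where 25% of all genes were lower and 23.4% higher (48.4% in all). With 1 library left out at a time, 22 of the 28 calls passed in each of the 6 fits (20 that fell and 2 that rose). With all 12 libraries setting the spread, 10 of the 34 passed, all lower, and 5.87% of all genes. In these unsorted cells, fewer megakaryocytes and less of a transcript per megakaryocyte cannot be told apart.

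**Figure D1:**
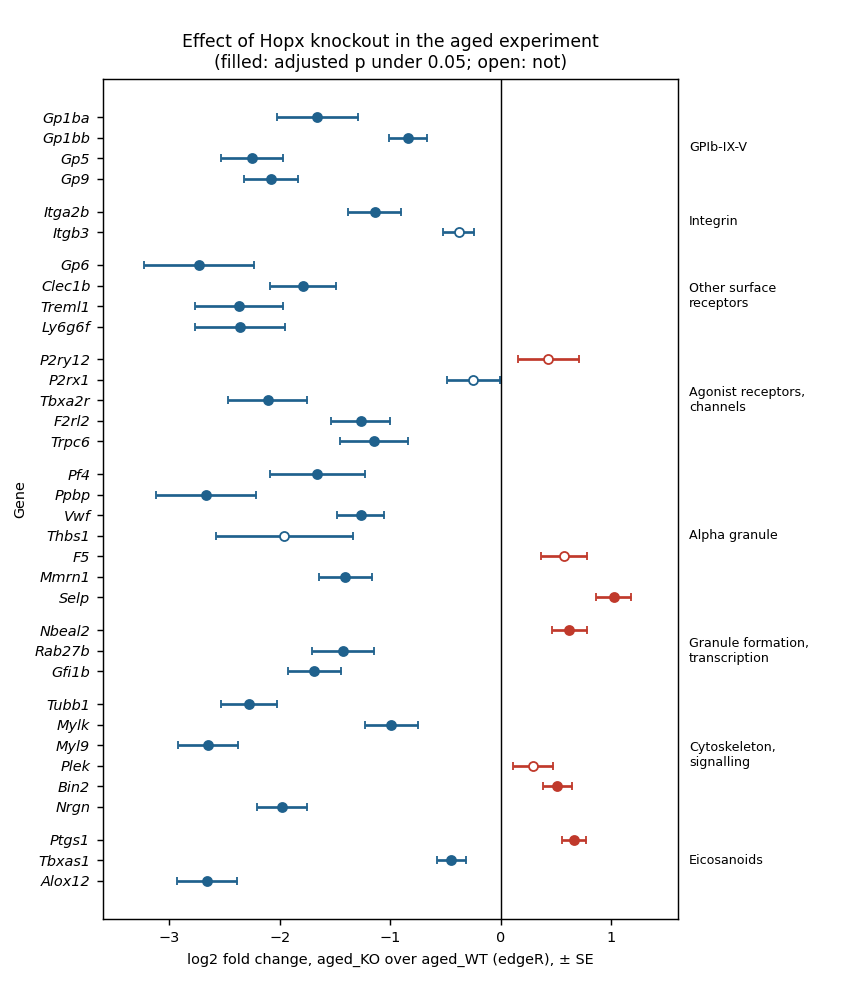
Log2 fold change of aged_KO over aged_WT for the 34 genes (x axis, edgeR, ± SE, n = 3 and 3), grouped by role down the page. Filled points have an adjusted p under 0.05. Of the filled points 24 lie left of 0 and 4 (Selp, Nbeal2, Bin2 and Ptgs1) lie right of it.

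The GPIb-IX-V complex, the receptor by which platelets catch on von Willebrand factor under flow, fell as a whole. All 4 of its genes passed. Gp5 was at 1.54, 1.65 and 3.45 CPM in aged_KO replicates 3, 9 and 10, against 12.4, 11.2 and 11.7 CPM in aged_WT replicates 1, 6 and 7, a log2 fold change of -2.25 ± 0.28 (edgeR adjusted p = 0.00096). Gp9, the small IX subunit, was at 1.54, 1.55 and 2.6 CPM in aged_KO and at 7.97, 9.63 and 9.43 CPM in aged_WT (-2.08 ± 0.24). The ligand-binding chain Gp1ba had 1.87, 1.09 and 3.51 CPM in aged_KO and 9.1, 7.02 and 6.18 CPM in aged_WT (-1.66 ± 0.37). In all 3 genes aged_KO replicate 10 was the highest of its group and still lay below every aged_WT library. Gp1bb, the disulphide-linked partner of Gp1ba, fell less, with 4.59, 4.59 and 6.24 CPM in aged_KO against 10.4, 10.2 and 10.5 CPM in aged_WT (-0.84 ± 0.17).

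The fibrinogen receptor, integrin αIIbβ3, moved with its α chain. Itga2b, which marks the lineage from its progenitors on, had 23.4, 26.4 and 44.2 CPM in aged_KO and 87.7, 77.7 and 69.2 CPM in aged_WT (-1.14 ± 0.24, edgeR adjusted p = 0.0107). Itgb3, whose product also pairs with αv in other cells, was at 69.1, 83 and 69.2 CPM in aged_KO and 123, 107 and 97.4 CPM in aged_WT. Its groups did not overlap in CPM, but the difference of -0.38 ± 0.14 did not pass (edgeR adjusted p = 0.0691) and passed without TMM scaling (-0.56, adjusted p = 0.00577).

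The surface receptors of collagen and podoplanin and their companions all fell, 4 of 4. Gp6, the collagen receptor, stood at 0.0549, 0.352 and 0.363 CPM in aged_KO and at 2.64, 2 and 1.52 CPM in aged_WT. Its log2 fold change, at these low levels, was the lowest of the 34 (-2.73 ± 0.5). Those of Ppbp (-2.67), Alox12 (-2.66) and Myl9 (-2.65) lay within its SE. Clec1b encodes CLEC-2, the podoplanin receptor, and had 1.92, 2.6 and 4.65 CPM in aged_KO against 13.6, 11.7 and 10.5 CPM in aged_WT (-1.79 ± 0.3). Treml1, an alpha-granule membrane receptor of platelets, was at 1.32, 0.774 and 3.02 CPM in aged_KO and 10.2, 9.95 and 8.42 CPM in aged_WT (-2.37 ± 0.4). No aged_KO library reached any aged_WT library in these genes. Ly6g6f, a platelet surface immunoglobulin-like protein, was at 0.439, 0.317 and 0.846 CPM in aged_KO against 3.93, 2.84 and 2.18 CPM in aged_WT (-2.36 ± 0.41).

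Receptors and channels for soluble agonists were split, with 3 of 5 lower. Tbxa2r, the thromboxane receptor, was at 0.384, 0.986 and 0.786 CPM in aged_KO and 3.07, 3.3 and 4.66 CPM in aged_WT (-2.11 ± 0.36). F2rl2, the thrombin cofactor receptor PAR3 of mouse platelets, had 2.85, 2.92 and 5.38 CPM in aged_KO and 12, 9.16 and 9.02 CPM in aged_WT (-1.27 ± 0.27). The cation channel Trpc6 had 0.989, 1.02 and 1.57 CPM in aged_KO and 3.61, 3.04 and 2.28 CPM in aged_WT (-1.15 ± 0.31). Its call was the less firm of these, passing in 2 of the 6 fits with a library left out. Both ADP and ATP receptors were outside the fall. P2ry12, the target of clopidogrel, stood at 7.08, 7.15 and 4.41 CPM in aged_KO and 7.21, 4.51 and 4.06 CPM in aged_WT (0.43 ± 0.28, edgeR adjusted p = 0.269). P2rx1, an ATP-gated channel, had 18.8, 24 and 22.3 CPM in aged_KO and 39.8, 26.1 and 22.1 CPM in aged_WT (-0.25 ± 0.24, edgeR adjusted p = 0.453). The groups overlapped in both genes.

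Alpha-granule genes went in both directions. The chemokine genes were the most abundant of those that fell. Ppbp, whose product is processed to neutrophil-activating chemokine, had 8.62, 8.17 and 22.8 CPM in aged_KO and 118, 82.9 and 79.6 CPM in aged_WT (-2.67 ± 0.45, edgeR adjusted p = 0.00874). Pf4, platelet factor 4, had 7.3, 7.25 and 21 CPM in aged_KO and 44.4, 38.7 and 42.4 CPM in aged_WT (-1.66 ± 0.43, edgeR adjusted p = 0.0298). Replicate 10 held the most of both chemokines in aged_KO, about midway to aged_WT for Pf4. The Pf4 call passed in 1 of the 6 fits with a library left out, and in these its adjusted p reached 0.085. Vwf, the adhesive multimer that GPIb binds, was at 9.06, 8.17 and 15.1 CPM in aged_KO and 27.9, 29.3 and 30.4 CPM in aged_WT (-1.27 ± 0.21). Mmrn1, multimerin, which carries factor V in the granule, had 3.35, 3.03 and 5.14 CPM in aged_KO and 13.9, 10.4 and 9.99 CPM in aged_WT (-1.41 ± 0.24). Neither gene overlapped between groups. Vwf, Selp and Mmrn1 are also endothelial genes.

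Selp, P-selectin of the granule membrane, rose. It had 26.1, 19.7 and 25.1 CPM in aged_KO and 13.3, 15.4 and 10.5 CPM in aged_WT (1.02 ± 0.16, edgeR adjusted p = 0.00256), and every aged_KO library was above every aged_WT library. Thbs1, thrombospondin 1, was at 75.4, 51.7 and 100 CPM in aged_KO and at 194, 159 and 654 CPM in aged_WT, where replicate 7 was far above the others. Its difference of -1.96 ± 0.62 did not pass (edgeR adjusted p = 0.0629); without aged_WT replicate 7 it was smaller but passed (-1.07, adjusted p = 0.0196). F5, coagulation factor V, had 228, 261 and 177 CPM in aged_KO and 210, 167 and 134 CPM in aged_WT, with overlap (0.57 ± 0.21, edgeR adjusted p = 0.0712).

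Among genes of granule formation and transcription, Rab27b and Gfi1b fell and Nbeal2 rose. Rab27b, a GTPase of dense-granule biogenesis and secretion, was at 2.17, 2.68 and 4.65 CPM in aged_KO and 11.2, 8.23 and 9.48 CPM in aged_WT (-1.43 ± 0.28). Gfi1b, a repressor needed for erythroid cells and megakaryocytes alike, was at 8.95, 8.41 and 5.62 CPM in aged_KO and 21.2, 25.5 and 38.1 CPM in aged_WT (-1.69 ± 0.24). Here replicate 10 was the lowest of aged_KO and replicate 7 the highest of aged_WT, unlike the surface glycoproteins. Nbeal2, whose human loss causes grey platelet syndrome, had 363, 336 and 263 CPM in aged_KO and 262, 246 and 199 CPM in aged_WT (0.62 ± 0.16, edgeR adjusted p = 0.0167), a call that passed in 3 of the 6 fits with a library left out.

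Of the cytoskeletal and signalling genes, 4 fell and 1 rose. Tubb1, the β1-tubulin of the platelet marginal band, was at 3.4, 2.85 and 5.44 CPM in aged_KO and 25.6, 20.4 and 17.3 CPM in aged_WT (-2.28 ± 0.25, edgeR adjusted p = 0.000738). Myl9, the myosin regulatory light chain, had 1.15, 1.3 and 2.24 CPM in aged_KO and 12.8, 11 and 9.33 CPM in aged_WT (-2.65 ± 0.27, edgeR adjusted p = 0.000487, the smallest of the 34). Nrgn, neurogranin, a calmodulin-binding protein found in platelets as well as neurons, was at 2.96, 1.8 and 3.63 CPM in aged_KO and 12.2, 13.3 and 11.1 CPM in aged_WT (-1.98 ± 0.23). Each of these 3 genes was separated between the groups by more than the range within either. Mylk, the kinase of that light chain, was at 2.69, 3.66 and 3.57 CPM in aged_KO and 9.15, 7.53 and 5.88 CPM in aged_WT (-0.99 ± 0.24). Bin2, a membrane-curving BAR protein, had 280, 280 and 223 CPM in aged_KO and 201, 218 and 203 CPM in aged_WT (0.51 ± 0.13, edgeR adjusted p = 0.0142). Plek, pleckstrin, the classical protein kinase C substrate of platelets, overlapped between groups, with 321, 395 and 273 CPM in aged_KO and 357, 281 and 279 CPM in aged_WT (0.29 ± 0.18).

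The eicosanoid enzymes parted. Alox12, platelet 12-lipoxygenase, was at 2.8, 1.76 and 4.17 CPM in aged_KO and 23.3, 19.5 and 17.8 CPM in aged_WT (-2.66 ± 0.27, edgeR adjusted p = 0.000492). Tbxas1, thromboxane synthase, fell slightly, with 17.4, 20 and 20.2 CPM in aged_KO and 31.4, 27.4 and 30.3 CPM in aged_WT (-0.45 ± 0.13), and passed in 2 of the 6 fits with a library left out. Ptgs1, cyclooxygenase 1, the target of aspirin, rose instead, with 102, 88.4 and 113 CPM in aged_KO and 65.3, 81.1 and 71.2 CPM in aged_WT (0.66 ± 0.11, edgeR adjusted p = 0.00374).

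Levels between genes were compared per length, in the deposited transcript abundances (TPM). In aged_KO the order began with Bin2 at 202 TPM, Plek at 119, Nbeal2 at 53.9, Ptgs1 at 52.8 and F5 at 44.2 TPM, and Pf4 and Ppbp followed at 33.1 and 18.8 TPM. In aged_WT it began with Bin2 at 151 TPM, Ppbp at 129, Pf4 at 113, Plek at 105 and Thbs1 at 81.2 TPM. The platelet chemokines stood lower in the order in aged_KO. Gp6 was last in aged_KO at 0.337 TPM, and Trpc6 was last in aged_WT at 1.3 TPM. Most neighbours in these orders overlapped between libraries, 29 of 33 pairs in aged_KO and 30 of 33 in aged_WT.

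**Figure D2:**
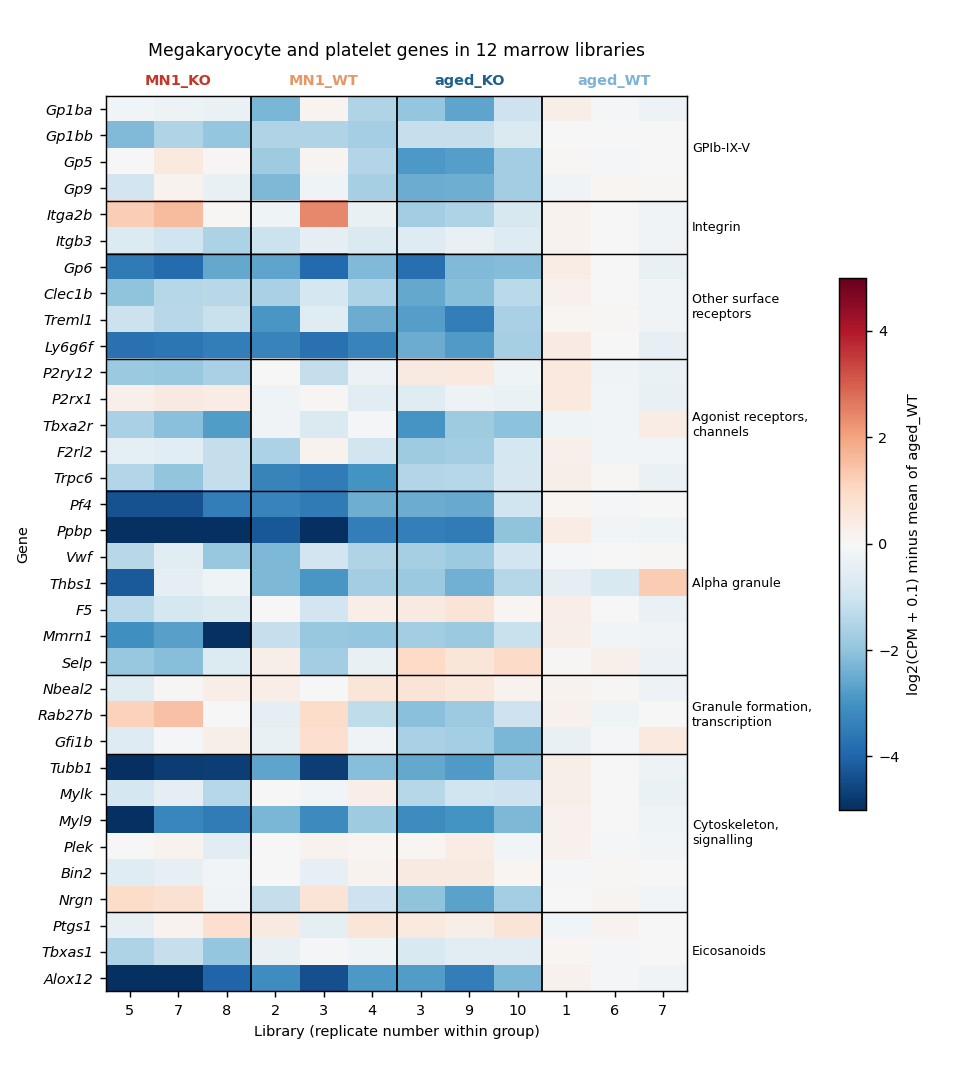
Level of each of the 34 genes (rows, grouped by role) in the 12 libraries (columns, replicate numbers below), as log2(CPM + 0.1) minus the mean of the 3 aged_WT libraries; the colours end at -5 and 5 and deeper values take the end colour. Ppbp, Tubb1 and Alox12 are dark blue throughout MN1_KO, whereas Itga2b is red in MN1_KO replicates 5 and 7 and in MN1_WT replicate 3.

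Other cell types moved in the same libraries. The shares over all genes tested, for the counts that follow, were 15.8% that fell and 15.6% that rose. In aged_KO 7 of 11 tested erythroid genes, 4 of 10 endothelial genes, 3 of 7 basophil and mast cell genes, 6 of 6 B cell genes, 4 of 5 T and NK cell genes, 2 of 9 monocyte and macrophage genes and 3 of 7 stem and progenitor genes fell, while 7 of 10 neutrophil genes rose. Of 5 smooth muscle and stromal genes tested, 0 passed with edgeR (1 with an unadjusted p under 0.05 in each direction, Col1a1 higher and Cxcl12 lower). Summed erythroid transcripts were at 486 to 873 CPM in aged_KO and 1260 to 6360 CPM in aged_WT. Hbb-bs, at 0 in aged_KO, was too low over the aged libraries to be tested. Summed endothelial transcripts were at 47 to 67.1 CPM in aged_KO and 85.2 to 97.6 CPM in aged_WT, with no marker at 0. The neutrophil sum, the largest, was at 99800 to 120000 CPM in aged_KO and 77300 to 99400 CPM in aged_WT. For comparison, the 6 genes taken as defining markers of the lineage (Pf4, Ppbp, Itga2b, Gp1ba, Gp9 and Tubb1) summed to 46.1 to 99.6 CPM in aged_KO and 224 to 292 CPM in aged_WT. The endothelial genes that were called fell, as did Vwf and Mmrn1, whereas Selp, which is also an endothelial gene, rose. Erythroid genes and Gfi1b fell, and so did genes of the other cell types named above except neutrophils and stroma. The part of any of these cell types in these results was not tested.

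Wider lists of the lineage held genes called in both directions in the aged experiment. Of 16 lineage transcription factors, 6 fell and 6 rose, where 15.8% of all genes fell and 15.6% rose. Gata2, a factor of early progenitors, fell to 12.5, 17 and 14.8 CPM in aged_KO, against 43.9, 35.8 and 36.2 CPM in aged_WT (-1.19 ± 0.17), and Mef2c fell by 1.10 on the log2 scale. Erg, an ETS factor, rose, with 52.6, 53.2 and 51.4 CPM in aged_KO and 35, 32.3 and 30.2 CPM in aged_WT (0.87 ± 0.11). Gata1, chosen after its values were seen, fell by 1.43. In thrombopoietin signalling the downstream genes Socs3 (1.26), Cbl (1.15) and Stat3 (0.68) rose, and Thpo, the ligand gene, was too low to test.

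Of 20 further genes listed for platelet receptors and integrin activation, 19 could be tested, and of these 3 fell and 5 rose. The share that fell was 15.8%, equal to that of all genes, of which 15.6% rose. Those that fell were Cd36, a thrombospondin receptor (-2.35 ± 0.31), Pear1 (-1.16 ± 0.24) and F2r, which encodes PAR1 (-0.80 ± 0.15). F2rl3, another thrombin receptor gene of the list, did not pass (-0.44 ± 0.40, edgeR adjusted p = 0.435). Tln1, the talin that activates integrins, rose (0.66 ± 0.15). Of 18 other granule and secretion genes, 1 fell and 5 rose, a share called of 33.3%, near the 31.4% of all genes. The secretion genes Stxbp2, Unc13d, Stx11 and Vipas39 rose by 0.62, 0.46, 0.59 and 0.44, and the growth factor gene Pdgfb, named because it alone fell, did so by 1.29 on the log2 scale. Of 12 tested cytoskeletal and proplatelet genes, 8 rose and 0 fell (edgeR; 0 of them lower at an unadjusted p under 0.05), among them Actn1 (0.97), Flna (0.94), Myh9 (0.74) and Tuba4a (0.58). Most of these broader lists hold genes that neutrophils also transcribe.

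Within the MN1 experiment, 32 of the 34 genes could be tested and 0 passed with edgeR (background 0% of 13525 genes). DESeq2 called 2, Tbxa2r and Tbxas1, both lower in MN1_KO, and 4.18% of all genes. At an unadjusted p under 0.05 there were 8 genes, 6 lower and 2 higher in MN1_KO, where 10% of all genes passed, and the median log2 fold change was -0.28, against 0.03 for all genes. Gp6 and Ly6g6f had too few counts. The spread inside MN1_WT was large, and replicate 3 stood apart from replicates 2 and 4. In 16 of the 34 genes replicate 3 was the highest of the 3 libraries, in 17 the lowest and in 1 between the other two. It exceeded both others by over 2-fold in 8 genes (Gp1ba, Gp5, Gp9, Itga2b, Treml1, F2rl2, Rab27b and Nrgn). Without replicate 3, 5 genes were called, 4 lower and 1 higher in MN1_KO, where 6.49% of all genes were called.

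Tbxas1 had 10.2, 13.3 and 7.66 CPM in MN1_KO replicates 5, 7 and 8, against 22.6, 27.9 and 25.8 CPM in MN1_WT replicates 2, 3 and 4 (-1.33 ± 0.24, edgeR adjusted p = 0.152). Tbxa2r, the receptor of its product, had 1.11, 0.769 and 0.435 CPM in MN1_KO and 3.16, 2.16 and 3.44 CPM in MN1_WT (-2.01 ± 0.48). In both genes the groups did not overlap in CPM, which was so for 7 genes lower and 2 higher in MN1_KO, where 8.32% and 6.73% of all genes were (15% in all). After TMM scaling the counts were 5 lower and 2 higher, beside 7.36% and 7.93% of all genes (15.3% in all). Trpc6 was one of the 2 higher, with 0.989, 0.673 and 1.22 CPM in MN1_KO and 0.198, 0.167 and 0.281 CPM in MN1_WT (2.11 ± 0.53). P2rx1 was the other, with 34.1, 38.8 and 36.6 CPM in MN1_KO and 25.1, 29.6 and 19.9 CPM in MN1_WT (0.55 ± 0.19). None of these passed with edgeR.

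In the MN1 libraries a first set of genes stood near or above the aged_WT level in MN1_KO and in MN1_WT replicate 3. Itga2b had 183, 232 and 81.3 CPM in MN1_KO and 66.5, 415 and 60.7 CPM in MN1_WT, beside 69.2 to 87.7 CPM in aged_WT. Gp5 had 11.8, 16.6 and 12.4 CPM in MN1_KO and 3.32, 13 and 4.2 CPM in MN1_WT. Nrgn had 23.3, 20.9 and 10.7 CPM in MN1_KO and 5.34, 19.6 and 5.85 CPM in MN1_WT. In all 3 genes MN1_WT replicate 3 lay at or above the lowest MN1_KO library, and replicates 2 and 4 lay below it. The same held for Rab27b, at 21.3, 26.5 and 9.53 CPM in MN1_KO and 7, 18 and 3.9 CPM in MN1_WT. Gp9 was at 4.61, 10 and 6.87 CPM in MN1_KO and 1.82, 7.68 and 2.76 CPM in MN1_WT, and Gp1ba at 6.7, 6.15 and 5.83 CPM against 1.42, 8.05 and 2.52 CPM.

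**Figure D3:**
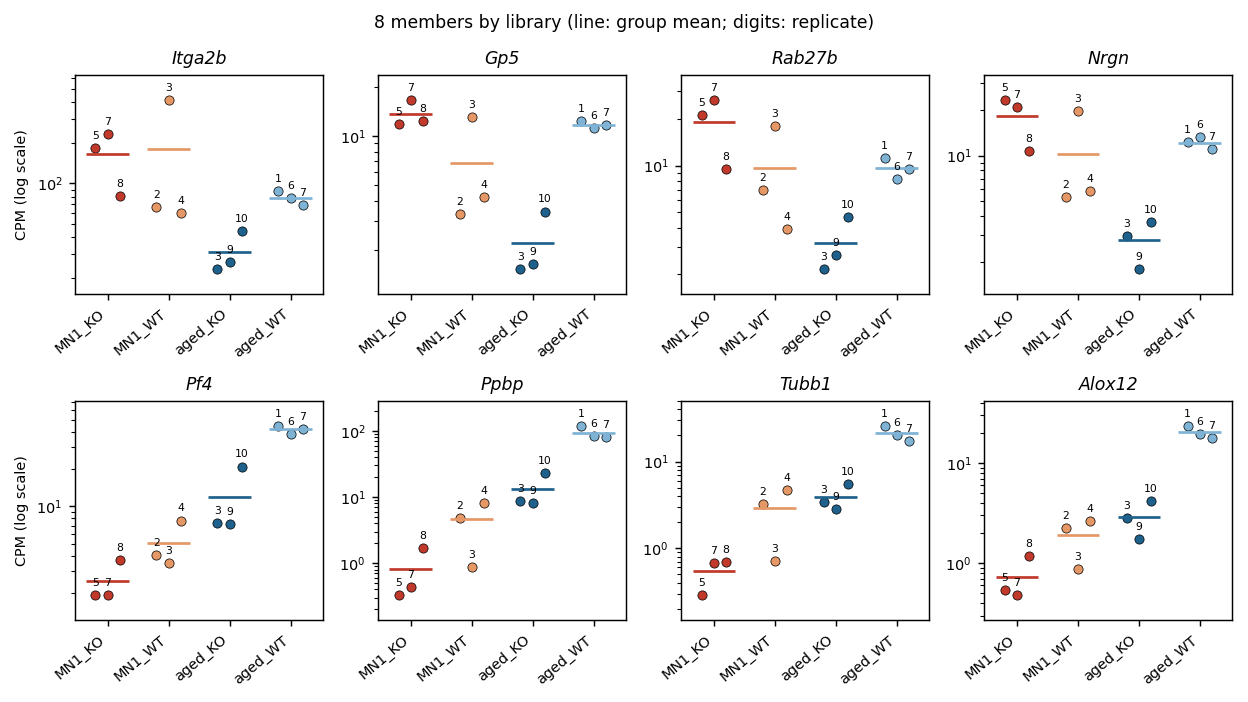
CPM (log scale) of 8 genes in each library, with MN1_KO, MN1_WT, aged_KO and aged_WT side by side, lines at group means and replicate numbers at the points. In the upper row (Itga2b, Gp5, Rab27b, Nrgn) MN1_WT replicate 3 lies at or above the lowest MN1_KO library; in the lower row (Pf4, Ppbp, Tubb1, Alox12) every MN1 library lies below every aged_WT library.

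A second set was low in every MN1 library. Ppbp had 0.329, 0.433 and 1.7 CPM in MN1_KO and 4.78, 0.872 and 8.17 CPM in MN1_WT, beside 79.6 to 118 CPM in aged_WT. Pf4 had 1.93, 1.92 and 3.7 CPM in MN1_KO and 4.03, 3.49 and 7.69 CPM in MN1_WT. Tubb1 had 0.288, 0.673 and 0.696 CPM in MN1_KO and 3.24, 0.706 and 4.72 CPM in MN1_WT. For Ppbp, Pf4 and Tubb1, MN1_WT replicate 3 was the lowest of its group, the reverse of the first set. Alox12 had 0.535, 0.481 and 1.17 CPM in MN1_KO and 2.25, 0.872 and 2.64 CPM in MN1_WT, and Myl9 had 0.123, 1.06 and 0.87 CPM against 2.13, 1.12 and 3.12 CPM. In 14 of the 34 genes every MN1 library lay below every aged_WT library, and in 2 of these, Gp1bb and Ly6g6f, below every aged_KO library too. Over all genes tested in the 12 libraries, 8.8% lay below every aged_WT library in this way and 2.33% below every aged library. In none of the 34 genes did every MN1 library lie above every aged library, which held for 9.53% of all genes.

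The ratio of Itga2b to Pf4 in CPM sets a gene of the first set over a gene of the second. It was 94.6, 121 and 22 in MN1_KO and 16.5, 119 and 7.9 in MN1_WT, against 3.2, 3.65 and 2.11 in aged_KO and 1.97, 2.01 and 1.63 in aged_WT. The ratio of Gp5 to Ppbp was 36, 38.4 and 7.28 in MN1_KO and 0.694, 14.9 and 0.515 in MN1_WT, against 0.151 to 0.203 in aged_KO and 0.105 to 0.147 in aged_WT. Every MN1 library exceeded every aged library in both ratios, and the 4 with Mn1 at 22.1 CPM or more exceeded MN1_WT replicates 2 and 4. Both sets were drawn from these same levels, so this order is no separate result. In MN1_WT replicates 2 and 4, Itga2b and Gp5 lay below every aged_WT library, so only Pf4 and Ppbp put the ratios there above aged_WT.

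Set against aged libraries of the same labelled genotype, the 34 genes moved in both directions in MN1_KO, also within a role. The knockout groups were not alike in Hopx itself, which was higher in MN1_KO than in aged_KO (6.10 ± 0.80, edgeR adjusted p = 0.0012). In MN1_KO over aged_KO, 14 genes fell and 6 rose, beside 16.8% and 21.1% of all genes (37.9% in all). The 6 that rose were Nrgn (2.32 ± 0.45, edgeR adjusted p = 0.005), Gp5 (2.26 ± 0.47), Rab27b (2.19 ± 0.51), Itga2b (2.00 ± 0.63), Gp9 (1.57 ± 0.48) and Gfi1b (1.41 ± 0.36). The Itga2b call was lost without aged_KO replicate 3 or 9 or MN1_KO replicate 5 or 7 (edgeR adjusted p = 0.0655 to 0.0993). The Gp9 call was lost without aged_KO replicate 3 or 9 or MN1_KO replicate 7 (0.0907 to 0.0957), and that of Gfi1b without aged_KO replicate 10 (0.0519). Among the 14 that fell were Ppbp (-4.31 ± 0.88), Tubb1 (-3.15 ± 0.67), Pf4 (-2.56 ± 0.52), Alox12 (-2.30 ± 0.54) and Ly6g6f (-2.15 ± 0.52). Without TMM scaling the counts were 12 that fell and 8 that rose, and the median of all genes stood at 0.46, where TMM gave 0.08.

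The other 9 genes that fell in MN1_KO over aged_KO were P2ry12, Selp, Mmrn1, F5 and 5 with smaller differences. P2ry12 was at 1.32, 1.3 and 1.61 CPM in MN1_KO, against 4.41 to 7.15 CPM in aged_KO (-2.50 ± 0.42). Selp was at 3.37, 2.88 and 8.05 CPM in MN1_KO, against 19.7 to 26.1 CPM in aged_KO (-2.62 ± 0.56). Mmrn1 was at 1.28, 1.63 and 0.261 CPM in MN1_KO, against 3.03 to 5.14 CPM in aged_KO (-2.27 ± 0.51). These 3 genes did not overlap between the groups. F5 had 65, 92.1 and 104 CPM in MN1_KO and 177 to 261 CPM in aged_KO (-1.70 ± 0.38). The smaller falls were those of Tbxas1 (-1.27 ± 0.18), Gp1bb (-1.23 ± 0.26), Bin2 (-1.06 ± 0.24), Itgb3 (-0.88 ± 0.19) and Plek (-0.61 ± 0.2). The calls of Itgb3 and Plek did not pass without TMM scaling (edgeR adjusted p = 0.0876 and 0.38). Plek also lost its call without aged_KO replicate 3 or 9 or MN1_KO replicate 5 or 8 (edgeR adjusted p = 0.0596 to 0.145).

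In MN1_WT over aged_WT, 11 genes fell and 0 rose with edgeR (none higher at an unadjusted p under 0.05 either), where 2.58% of all genes fell and 1% rose (3.58% in all). The largest falls were those of Ppbp (-4.44 ± 0.83), Ly6g6f (-4.20 ± 0.51), Trpc6 (-3.90 ± 0.45), Alox12 (-3.51 ± 0.53) and Gp6 (-3.35 ± 0.8). Trpc6 was at 0.198, 0.167 and 0.281 CPM in MN1_WT, against 3.61, 3.04 and 2.28 CPM in aged_WT. Ly6g6f was at 0.198, 0.125 and 0.2 CPM in MN1_WT and at 0.123, 0.144 and 0.174 CPM in MN1_KO, so it stood under 0.25 CPM in every MN1 library. The others were Pf4 (-3.17 ± 0.52), Tubb1 (-2.97 ± 0.62), Gp1bb (-1.75 ± 0.26), Vwf (-1.66 ± 0.37), Clec1b (-1.52 ± 0.36) and Itgb3 (-0.91 ± 0.19). Gp1bb was at 2.19, 3.62 and 2.66 CPM in MN1_KO and 3.57, 3.61 and 3.16 CPM in MN1_WT, apart from the rest of its receptor complex. Between 4 and 14 genes were called when 1 library was left out. Gp6 lost its call whichever library of these groups was left out (edgeR adjusted p = 0.0606 to 0.133). Ppbp and Tubb1 lost theirs without any 1 aged_WT library and without MN1_WT replicate 2. Vwf, Clec1b and Itgb3 lost theirs in these fits and without MN1_WT replicate 4. Pf4 lost its call without MN1_WT replicate 2. Without MN1_WT replicates 2 and 4, 9 fell and 1 rose, beside 16.8% of all genes, with the single remaining MN1_WT library assumed to vary like the other groups.

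**Figure D4:**
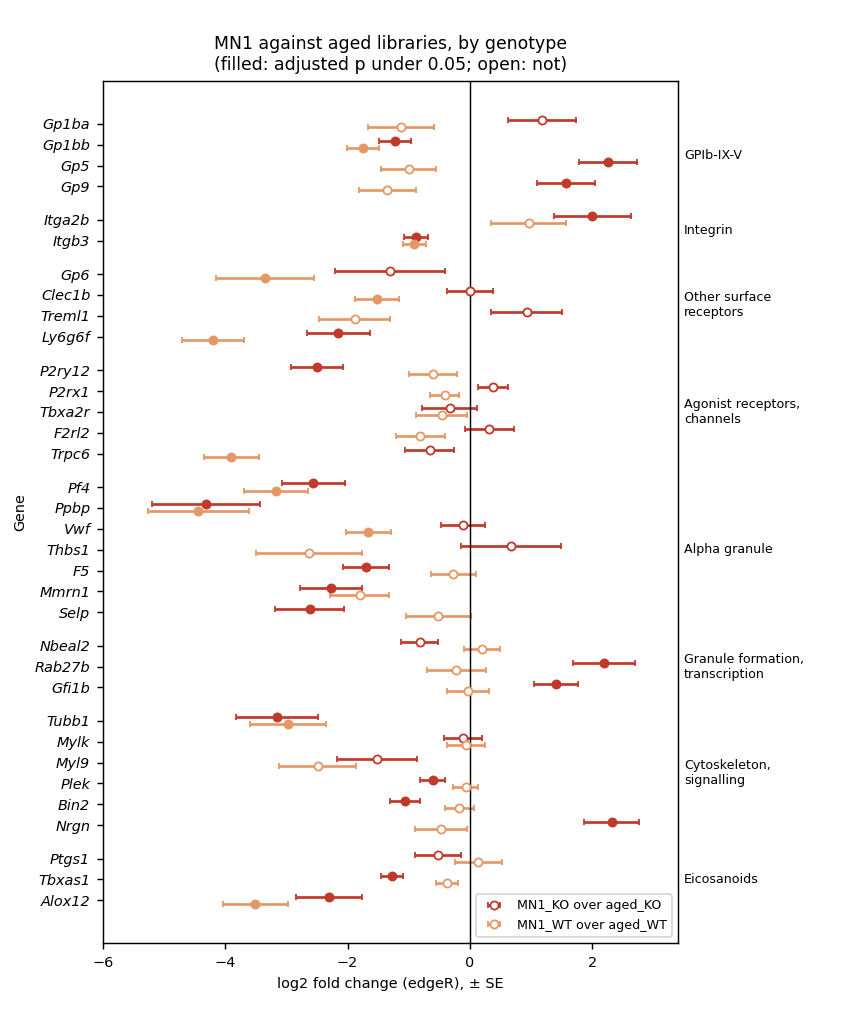
Log2 fold change (x axis, edgeR, ± SE) of MN1_KO over aged_KO (dark red) and of MN1_WT over aged_WT (orange) for the 34 genes by role; filled points have an adjusted p under 0.05. The 6 filled points right of 0 all belong to MN1_KO over aged_KO, and Ppbp lies below -4 in both.

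The order by TPM in the MN1 groups put Bin2 first, at 132 TPM in MN1_KO and 178 TPM in MN1_WT, then Plek at 114 and 135 TPM and Itga2b at 81.7 and 95.9 TPM. Pf4 was at 7.77 TPM in MN1_KO and 17 TPM in MN1_WT, and Ppbp at 1.19 and 7.52 TPM. Gp6 was last in MN1_KO at 0.177 TPM and Trpc6 last in MN1_WT at 0.12 TPM. Of 33 neighbouring pairs, 32 overlapped in MN1_KO and 31 in MN1_WT.

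The knockout effects of both experiments were compared directly. Hopx itself differed (MN1 minus aged, 6.12 ± 0.96, edgeR adjusted p = 0.0134). Its knockout effect was -2.84 ± 0.38 in the MN1 experiment and -8.94 ± 0.76 in the aged one. In the difference (MN1 minus aged) 4 of the 34 genes passed, all positive, where 3.32% of all genes passed and 1.41% did so in that direction. Gp5 differed by 3.26 ± 0.65, with a knockout effect of 1.04 ± 0.5 in the MN1 experiment and -2.25 ± 0.28 in the aged one. Trpc6 differed by 3.24 ± 0.59 (2.11 ± 0.53 and -1.15 ± 0.31), Gp9 by 2.92 ± 0.67 (0.87 ± 0.58 and -2.08 ± 0.24) and Nrgn by 2.79 ± 0.62 (0.85 ± 0.5 and -1.98 ± 0.23). The edgeR adjusted p was 0.0278, 0.0219, 0.0442 and 0.0398 in that order. The median difference of the 34 was 0.88, against 0.08 for all genes. Without MN1_WT replicates 2 and 4, the libraries with Mn1 at the level of the aged ones, 0 passed with edgeR, and 0.273% of all genes did. With 1 library left out the count ran from 0 to 17; it was 2 without aged_KO replicate 10 or MN1_KO replicate 7, 1 without MN1_WT replicate 4, 0 without MN1_WT replicate 2, aged_KO replicate 3 or 9, or any aged_WT library, and 17 without MN1_WT replicate 3, where 23.6% of all genes passed.

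Markers of other cell types also differed among the MN1 libraries. The summed stem and progenitor markers were at 2410, 1810 and 462 CPM in MN1_KO and at 182, 2540 and 116 CPM in MN1_WT, against 107 to 121 CPM in aged_KO and 152 to 164 CPM in aged_WT. MN1_WT replicates 2 and 4 lay below every MN1_KO library in this sum, as they did for the first set. All 7 of these markers rose in MN1_KO over aged_KO, a comparison in which 21.1% of all genes rose and 16.8% fell. The summed basophil and mast cell markers were at 6370, 3530 and 1050 CPM in MN1_KO and at 1740, 4400 and 1500 CPM in MN1_WT, against 240 to 466 CPM in aged_KO and 667 to 1180 CPM in aged_WT; 4 of 7 rose in MN1_KO over aged_KO. In this sum MN1_KO replicate 8 was the lowest of the MN1 libraries. No marker of either list was at 0 in any group. Neutrophil markers ran the other way, with sums of 25400, 58200 and 85400 CPM in MN1_KO and 78100, 38500 and 86900 CPM in MN1_WT. In MN1_KO over aged_KO 6 of 10 of them fell. Their part in these results was not tested.

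In the wider lists, 5 of 16 lineage transcription factors rose and 3 fell in MN1_KO over aged_KO. The share that fell was 18.8%, near the 16.8% of all genes, and 21.1% of all genes rose. Gata2 was at 720, 603 and 328 CPM in MN1_KO, against 12.5 to 17 CPM in aged_KO (4.81 ± 0.82), and at 81.9, 793 and 68.6 CPM in MN1_WT. F2r rose in MN1_KO over aged_KO (4.81 ± 1), with 305, 355 and 128 CPM in MN1_KO against 6.86 to 7.31 CPM in aged_KO. In MN1_WT it was at 23.4, 509 and 26.2 CPM, with replicate 3 again apart. Of the 12 cytoskeletal and proplatelet genes tested, 9 fell and 0 rose in MN1_KO over aged_KO (edgeR; 0 higher at an unadjusted p under 0.05), Flna among them (-1.73 ± 0.35). In MN1_KO against MN1_WT none of the genes of these lists passed with edgeR; Socs3 had the smallest p of them (-1.55 ± 0.36, unadjusted p = 0.00434, adjusted p = 0.243).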

How the data were processed

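Bone marrow RNA was sequenced from 12 libraries with a stranded mRNA kit, per the labels' protocols. The deposited tables hold expected counts, TPM and FPKM per gene symbol. The submitters' processing notes name RSEM 1.2.28, Bowtie2 2.3.4.3 and the build mm10; the annotation and the strand setting are not given in the sources used here. The deposited expected counts (5.2 to 6.84% of genes not whole per library) were rounded. The deposited TPM only ordered genes within a group, and the deposited FPKM were not analysed here. After filterByExpr and TMM scaling, the quasi-likelihood test of edgeR 4.0.16 (robust, R 4.3.3) was run, with Benjamini-Hochberg adjustment over all tested genes at 0.05. Knockout effects used the 6 libraries of a table; the other contrasts came from 1 fit of all 12 libraries, whose tables were deposited separately, so differences between MN1 and aged libraries may include table differences. The scripts were tested on simulated data. Alternatives were RLE factors, library totals (added after seeing the data), no filter or a stricter one (at least 1 CPM), DESeq2 1.42.0, limma-trend 3.58.1 (prior count 2), other sets of libraries and leaving out each library. The 34 genes and all lists were chosen with earlier results of these data known. Values per library are given by a rule: per role, genes past the threshold with the smallest p, those moving against their role or past it elsewhere, and the highest by TPM; of other lists, up to 4 genes with the smallest p in the aged comparison and 2 in the MN1 one, with further genes of these lists chosen after their values were seen. Some genes of the wider lists are not reported here.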

Additional observations from a re-analysis of the deposited data

Results flagged for a closer look

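For 4 genes the knockout effect in the MN1 experiment differed from that in the aged experiment by a direct test (edgeR interaction contrast, log2, MN1 minus aged, n = 3 in each of 4 groups). They are Gp5, a subunit of the von Willebrand factor receptor (3.26 ± 0.65, edgeR adjusted p = 0.0278), its complex partner Gp9 (2.92 ± 0.67, edgeR adjusted p = 0.0442), the cation channel gene Trpc6 (3.24 ± 0.59, edgeR adjusted p = 0.0219) and Nrgn (2.79 ± 0.62, edgeR adjusted p = 0.0398). None of the 4 passed without MN1_WT replicates 2 and 4, where the differences were 2.4, 2.07, 3.73 and 1.92 in the same order. Trpc6 differs from the other 3 in its levels: the 3 MN1_WT libraries lie close together, at 0.167 to 0.281 CPM, whereas Gp5, Gp9 and Nrgn are at least 2.78 times higher in MN1_WT replicate 3 than in either other library of that group.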

How the results depend on the processing

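No paired analysis was possible because the groups compared share fewer than 2 replicate numbers. Of the 34 genes, the 28 called in aged_KO against aged_WT were 27 to 30 under the other scalings, filters and tools, 23 to 29 with 1 library left out, and 10 when all 12 libraries set the spread. The 0 of MN1_KO against MN1_WT became 2 with DESeq2 (4.18% of all genes) and 3 with all 12 libraries (3.33% of all genes). It ran from 0 to 5 with 1 library left out. The 4 of the difference of knockout effects, all positive, became 12 with DESeq2, 9 positive and 3 negative. DESeq2 called 12% of all genes there, against 3.32% with edgeR. The count ran from 0 to 17 with 1 library left out. The 11 of MN1_WT against aged_WT ran from 4 to 14, and the 20 of MN1_KO against aged_KO from 17 to 21, with 1 library left out; the first was 4 without MN1_WT replicate 2, 5 without any 1 aged_WT library and 7 without MN1_WT replicate 4. P2rx1 in the aged comparison, which did not pass, ran from -0.43 to 0.06 with 1 library left out and changed sign without aged_WT replicate 1. For single genes, 397 of 442 alternative values in the aged comparison kept direction and side of the threshold, 37 lost the call, 7 gained it and 1 changed sign. The causes were not tested. Low counts limit Gp6 and Ly6g6f in the MN1 libraries, where they were too low to test between genotypes.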

Other observations

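A few genes outside the 34, chosen after their values were seen, are given as values with no theme. Slc35d3, a dense-granule gene in mouse, was at 97, 143 and 36.3 CPM in MN1_KO and at 2.25, 154 and 0.721 CPM in MN1_WT, against 0.563 to 1.33 CPM in aged_KO and 1.45 to 1.77 CPM in aged_WT. It rose in MN1_KO over aged_KO (6.22 ± 1.6, edgeR adjusted p = 0.016). Serpine2, a thrombin inhibitor, was at 557, 313 and 136 CPM in MN1_KO and at 30.2, 126 and 30.3 CPM in MN1_WT (2.43 ± 0.66, which did not pass: edgeR unadjusted p = 0.00916). The prostaglandin receptor gene Ptger3 was at 20.8, 44.5 and 22.8 CPM in MN1_KO and 6.17, 28.3 and 4.84 CPM in MN1_WT, against 1.63 to 2.18 CPM in aged_KO and 2 to 3.09 CPM in aged_WT. Cd36 was lower in MN1_KO than in every MN1_WT library, with 16.9, 6.68 and 7.7 CPM in MN1_KO and 36.3, 34.7 and 111 CPM in MN1_WT. The difference did not pass (-2.65 ± 0.63, edgeR adjusted p = 0.243), and 8.32% of all genes were lower without overlap in MN1_KO.

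Among the 34, aged_KO replicate 10 lay nearest to aged_WT for Pf4, Ppbp, Itga2b, Gp5 and Tubb1, and farthest from it for Gfi1b. Without it the fall of Pf4 was 2.33 on the log2 scale (-2.33), against 1.66 with all 3 aged_KO libraries (-1.66).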
